A study of Homo sapiens with 8 samples.

Results

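TRiC, also called CCT, is the cytosolic chaperonin of eukaryotes, and its 8 subunits are each encoded by a gene of their own: TCP1 (the alpha subunit), CCT2 (beta), CCT3 (gamma), CCT4 (delta), CCT5 (epsilon), CCT6A (zeta), CCT7 (eta) and CCT8 (theta). The members were the 8 rows of the deposited gene table whose Ensembl identifier, with the version ignored, maps to these symbols, out of 60651 genes in all. Every symbol matched a single row, and all 8 passed the filter on low values (a mean of at least 1 TPM over the libraries), so none was left out of any test. The measurements were ribosome footprints, the short mRNA fragments that translating ribosomes protect from nuclease, in IMR32 cells, a human neuroblastoma line with amplified MYCN and, per the labels, a wild-type genotype. There were 4 libraries of cells exposed for 6 h to CR31B, a silvestrol analogue of the rocaglate class that acts on the RNA helicase eIF4A, and 4 libraries of cells given its solvent DMSO. All 8 received cycloheximide, which arrests elongating ribosomes, before harvest. This is 1 cell line in culture and footprints alone, with no matched total mRNA analysed here, so less mRNA and less translation per mRNA cannot be told apart. The design calls the 4 libraries of a group biological replicates.

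In TRiC a pair of stacked rings, each holding 1 copy of every subunit in a fixed order, encloses an unfolded protein and closes over it as ATP is hydrolysed. Actin and tubulin depend on it, as do several proteins with beta-propeller folds. Because the rings need equal numbers of each subunit, the rates at which the subunits are made are of interest as a stoichiometry. Prefoldin hands clients to the ring, and proteins of the phosducin-like family act on it as cochaperones. Rocaglates clamp eIF4A onto purine-rich RNA, so a run of A and G in the 5′ untranslated region (5′ UTR) is a feature often examined in mRNAs exposed to them.

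The genes lie on different chromosomes, apart from CCT4 and CCT7, which are both on chromosome 2 (GRCh38, GENCODE release 29). TCP1 occupies chromosome 6 from 159778498 to 159789749 on the minus strand, CCT2 chromosome 12 from 69585334 to 69601570 on the plus strand, and CCT3 chromosome 1 from 156308968 to 156367873 on the minus strand. CCT4 runs from 61868089 to 61888804 (minus strand) and CCT7 from 73233420 to 73253021 (plus strand) on chromosome 2. CCT5 lies on chromosome 5 from 10249921 to 10266412 (plus strand), CCT6A on chromosome 7 from 56051630 to 56063989 (plus strand) and CCT8 on chromosome 21 from 29055805 to 29073797 (minus strand). Their coding sequences are of nearly equal length, from 531 codons in CCT6A to 556 in TCP1. The annotated transcripts differ far more, from 1916 nt in CCT7 to 3675 nt in CCT5, and coding sequence makes up 44.2% of the CCT5 transcript and 85.2% of that of CCT7.

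The sequences around the start codon are shown beside the footprint levels of the subunits, which were very unequal, and whether they bear on those levels was not tested. Each runs 5′ to 3′ over the 9 bases before the start codon, the start codon itself in capitals, and the 3 bases after it, read from 1 representative GENCODE transcript per gene.
CCT5: tgttgcaccATGgcg
CCT3: cgcgtcgccATGatg
CCT6A: ggagcagctATGgcg
CCT8: aggctggccATGgcg
CCT7: gcttccaaaATGatg
CCT2: ctcggaaccATGgcg
TCP1: gccgtcaagATGgag
CCT4: gagtttgccATGccc
They are listed from the highest to the lowest mean footprint level. All 8 subunits have a purine at position -3 (counted back from the A of the start codon), as do 86.6% of the 10013 tested protein-coding genes with such a sequence. A G at position 4, directly after the start codon, is found in 5 of the 8 and in 53.8% of those genes. CCT5 and CCT3, which had nearly the same mean at the top of the order, differ in it: CCT5 has that G, and CCT3 lacks it, as do CCT7 and CCT4, the lowest.

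The longest unbroken run of A and G in the 5′ UTR was searched on the mRNA strand, since purine runs are the feature associated with rocaglates. It measured 16 nt in CCT7, 14 nt in CCT5, 10 nt in CCT8, 8 nt in CCT4, 7 nt in CCT2 and CCT3, and 6 nt in TCP1 and CCT6A. A run of 16 nt or more is held by 6.94% of 10087 tested protein-coding genes, one of 14 nt or more by 11.5% and one of 10 nt or more by 34.6%, and their median is 8 nt. The run of CCT5 consists of A alone at the first base of the annotated transcript. Only the longest run of each gene was recorded. Of these, the runs of CCT7 and CCT8 are the longest that lie inside the UTR. They and the run of CCT4 are shown in capitals within 30 bases of their surroundings.
CCT7: cggtctcGGAGAAGAGGGGAGAGtggcggg
CCT8: acctggcggcAGGGAAAGGGtgggctaatt
CCT4: cgccgcgcggcAAGGAAGGcccccttctcc
The 5′ UTRs of the subunits are from 141 nt (CCT7) to 420 nt (CCT5) long, around the median of 206 nt. Their purine content, from 43.1% in TCP1 and CCT4 to 52.5% in CCT7, compares with a median of 50.9% over the tested genes. CCT5 has the lowest GC content of the group, 48.1% against a median of 66.5%.

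The 8 subunits had footprint levels among the higher ones of these cells, and their levels were far from equal. TPM normally divides by the length of the whole transcript, while footprints come mostly from coding sequence. The levels compared between genes below are on the TPM scale. Over all 8 libraries CCT5 had a mean of 567 ± 78.9 TPM and CCT3 one of 565 ± 63.3 TPM (SD, n = 8 each, here and below). CCT6A followed at 262 ± 34.7 TPM, CCT8 at 261 ± 44.3 TPM and CCT7 at 206 ± 26.9 TPM. CCT2 stood at 140.5 ± 8.99 TPM, TCP1 at 131 ± 16.9 TPM and CCT4 at 81.9 ± 10.3 TPM. These means lay between the 89.7th and the 97.9th percentile of the 11778 genes tested. CCT4 was the lowest of the 8 in every library, and CCT5 or CCT3 was the highest.

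**Figure D1:**
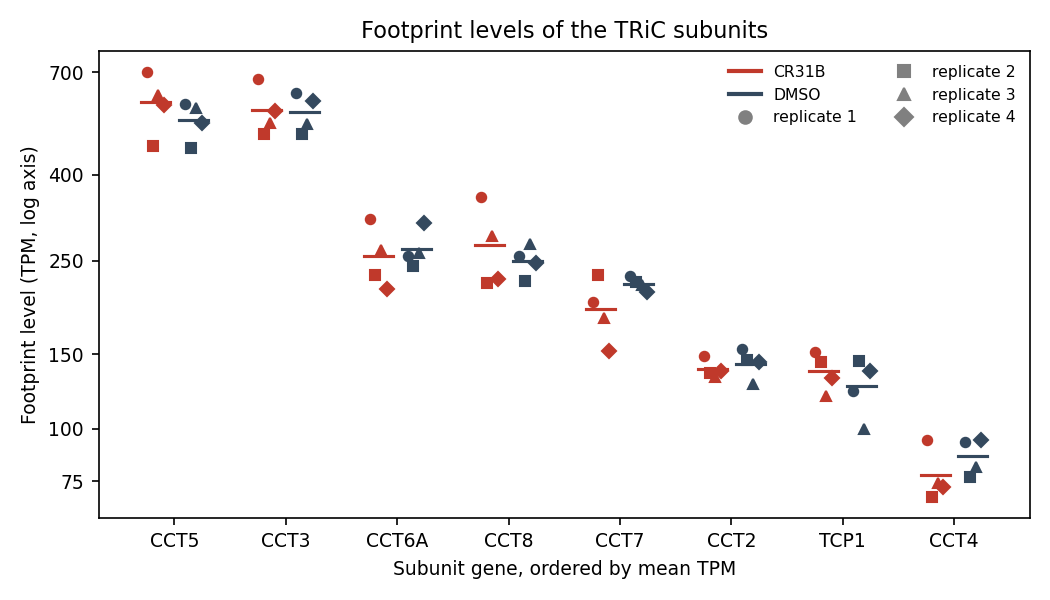
Footprint level of each TRiC subunit gene in TPM on a log axis, ordered by mean, with CR31B libraries in red, DMSO libraries in dark blue, 1 marker shape per replicate number and a line at each group mean. CCT5 and CCT3 lie at 463 TPM or more and CCT4 at 94.2 TPM or less in all 8 libraries, and the red and blue points overlap for every subunit.

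Neighbours in this order were not always distinct. CCT5 exceeded CCT3 in 4 of 8 libraries, and CCT6A exceeded CCT8 in 4 of 8, so neither pair differed in TPM beyond its spread. CCT2 was above TCP1 in 6 of 8 libraries and CCT8 above CCT7 in 7 of 8. The remaining steps held in all 8 libraries. CCT3 was from 1.94 to 2.64 times CCT6A, CCT7 from 1.12 to 1.72 times CCT2, and TCP1 from 1.24 to 2.08 times CCT4.

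As a stoichiometry, each subunit was expressed as its share of the summed TPM of all 8, for which equal TPM would give the same share to each. CCT5 took 25.5% ± 2.10 and CCT3 25.5% ± 1.17 (SD, n = 8), so these subunits together held from 47.7% to 55.2% of the summed subunit TPM per library. CCT6A took 11.8% ± 0.942 and CCT8 11.7% ± 1.07, both near the equal share. CCT7 took 9.38% ± 1.56, CCT2 6.38% ± 0.513, TCP1 5.97% ± 0.898 and CCT4 3.69% ± 0.274. The highest subunit exceeded the lowest by 6.38 to 8.31 times in a library. Prefoldin, the 6-subunit complex that delivers clients to TRiC, had a ratio of highest to lowest of 6.08 to 9.56 across its subunits. The order and the shares rest on TPM, which normally counts the whole transcript as length, while footprints come mostly from coding sequence. With TPM multiplied by transcript length and divided by coding length, CCT5 took 36.2% ± 2.57, CCT3 21.0% ± 0.982 and CCT4 3.61% ± 0.289. CCT5 and CCT3 were then no longer level, TCP1 passed CCT2, and the ratio of highest to lowest rose to 8.22 to 12.07. That scale uses the length of 1 annotated transcript per gene, and the lengths used in the deposited TPM are not given in the sources used here. The split of CCT5 from CCT3 rests on the transcript chosen for CCT5, the longest of the group at 3675 nt, against 2150 nt for CCT3.

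**Figure D2:**
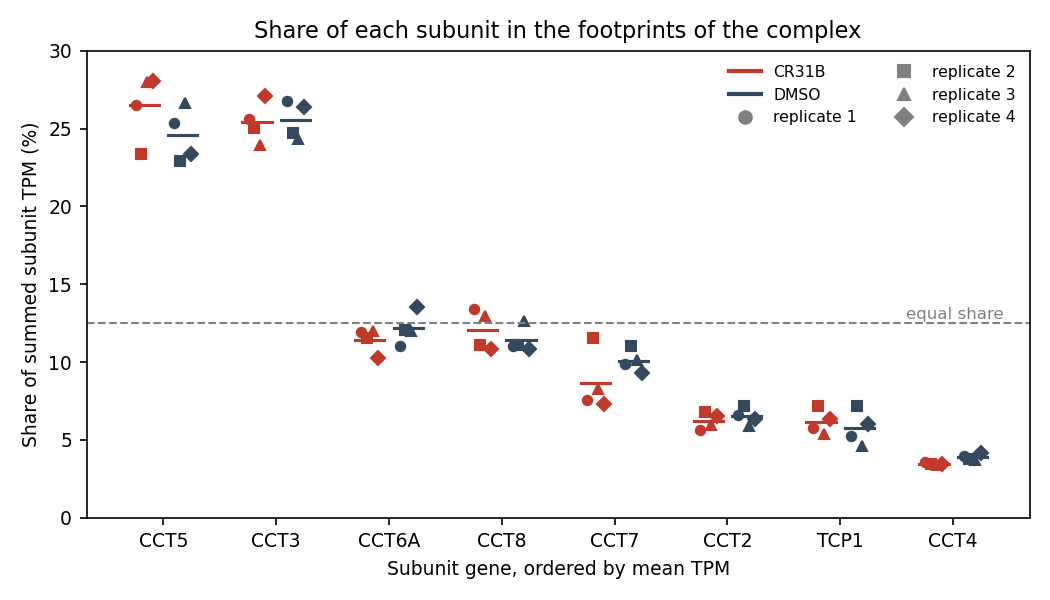
Share of each subunit in the summed TPM of the 8 subunits (percent, axis from 0), by library, with CR31B in red, DMSO in dark blue, marker shapes for replicate numbers and lines at group means. CCT5 lies between 22.9% and 28.1%, CCT3 between 24.0% and 27.1% and CCT4 between 3.37% and 4.14%, against the dashed line at an equal share.

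No subunit passed the test for a change under CR31B. In limma on log2(TPM + 1), 0 of 8 had an adjusted p under 0.05, where 7.46% of all 11778 tested genes did (3.45% higher and 4.02% lower in CR31B). At an unadjusted limma p under 0.05 the count was also 0, against 23.4% of tested genes, and the smallest exact permutation p was 0.143. With the replicate number as a block it was again 0, against 12.3%. Groups overlapped for all 8 subunits, whereas they did not for 16.2% of tested genes. The log2 fold change was above 0 for 4 subunits and below 0 for 4, with a median of -0.014 beside 0.029 over all tested genes. Of the 969 tested genes whose mean lay within the range of the subunits, 11.2% were called.

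CCT7, the eta subunit, had the fold change farthest from 0. In order of replicate number, the CR31B libraries held 199.5, 232, 183 and 153 TPM and the DMSO libraries 229.5, 223, 219 and 211 TPM. Of the CR31B libraries 3 lay below all DMSO libraries and replicate 2 lay above them all. The means were 192 ± 32.8 and 221 ± 7.64 TPM (SD, n = 4 each). On the log2 scale the difference was -0.22 (95% confidence interval from -0.51 up to 0.076; SE 0.13; adjusted p in limma 0.361). Without CR31B replicate 2 it was -0.31, with a limma adjusted p of 0.169, and without CR31B replicate 4 it was -0.11.

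CCT4, the delta subunit, measured 94.2, 69.03, 74.5 and 72.6 TPM in the CR31B libraries (replicates 1 to 4) and 92.9, 76.85, 80.9 and 93.9 TPM in the DMSO libraries. It was lower in CR31B in 3 of 4 replicate pairs, with CR31B replicate 1 above the whole DMSO range. Its log2 fold change was -0.15 (95% confidence interval from -0.44 up to 0.13; SE 0.13; adjusted p in limma 0.515). Without CR31B replicate 1 it was -0.25. An opposite-strand gene, COMMD1, shares exonic sequence with CCT4 at 22.7 ± 2.76 TPM under CR31B and 26.7 ± 6.53 TPM under DMSO, and how strands were counted is not given in the sources used here.

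CCT5, the epsilon subunit, measured 701, 468, 619 and 586 TPM in the CR31B libraries (replicates 1 to 4) and 589.9, 463, 576 and 531 TPM in the DMSO libraries. It was higher in CR31B in 4 of 4 pairs, but replicate 2 of either group lay below all the others, and the groups overlapped. The log2 fold change was 0.13 (95% confidence interval from -0.20 up to 0.45; SE 0.15; adjusted p in limma 0.655).

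TCP1, the founding member of the family, measured 152, 144, 119 and 132 TPM in the CR31B libraries (replicates 1 to 4) and 123, 145, 100.03 and 137 TPM in the DMSO libraries. Replicate 3 was the lowest library of both groups. Its log2 fold change was 0.12 (SE 0.14; adjusted p in limma 0.643). Exons of TCP1 overlap those of ACAT2, a thiolase on the opposite strand, at 107 ± 14.8 TPM under CR31B and 144 ± 11.7 TPM under DMSO. ACAT2 had a log2 fold change of -0.43, with a limma adjusted p of 0.0624 and of 0.0289 with the replicate block, and its part in the TCP1 value was not tested.

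CCT8, the theta subunit, measured 354, 222, 287 and 226 TPM in the CR31B libraries (replicates 1 to 4) and 257, 224, 273 and 247 TPM in the DMSO libraries. CR31B replicate 1 was the highest and the groups overlapped, with a log2 fold change of 0.097 (SE 0.16; adjusted p in limma 0.766) that was -0.038 without that library. CCT6A, the zeta subunit of somatic cells, measured 314, 231, 266 and 215 TPM in the CR31B libraries (replicates 1 to 4) and 257, 243, 260.2 and 308 TPM in the DMSO libraries. The lowest and the highest of these values were both CR31B libraries, and the log2 fold change was -0.068 (SE 0.14; adjusted p in limma 0.822).

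CCT3, the gamma subunit, measured 676, 501, 529.6 and 566 TPM in the CR31B libraries (replicates 1 to 4) and 624, 499, 527 and 599 TPM in the DMSO libraries. Libraries with the same number were close, and the log2 fold change was 0.012 (SE 0.13; adjusted p in limma 0.968). CCT2, the beta subunit, varied least, at 149, 136, 132 and 137 TPM in CR31B and at 154, 145, 127 and 144 TPM in DMSO, with a log2 fold change of -0.040 (SE 0.10; adjusted p in limma 0.865). A p above the threshold does not show equality, and each interval bounds, for its own gene, the change relative to the rest of the library that could have been missed. TPM fixes each library's sum, so a change shared by most genes would not show in these values. Over the 8 subunits the 95% confidence intervals ran from 0.702-fold, the lower bound of CCT7, to 1.37-fold, the upper bound of CCT5. At these standard errors a log2 fold change of 0.39 for CCT2 and up to 0.59 for CCT8 would have been needed for a call.

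**Figure D3:**
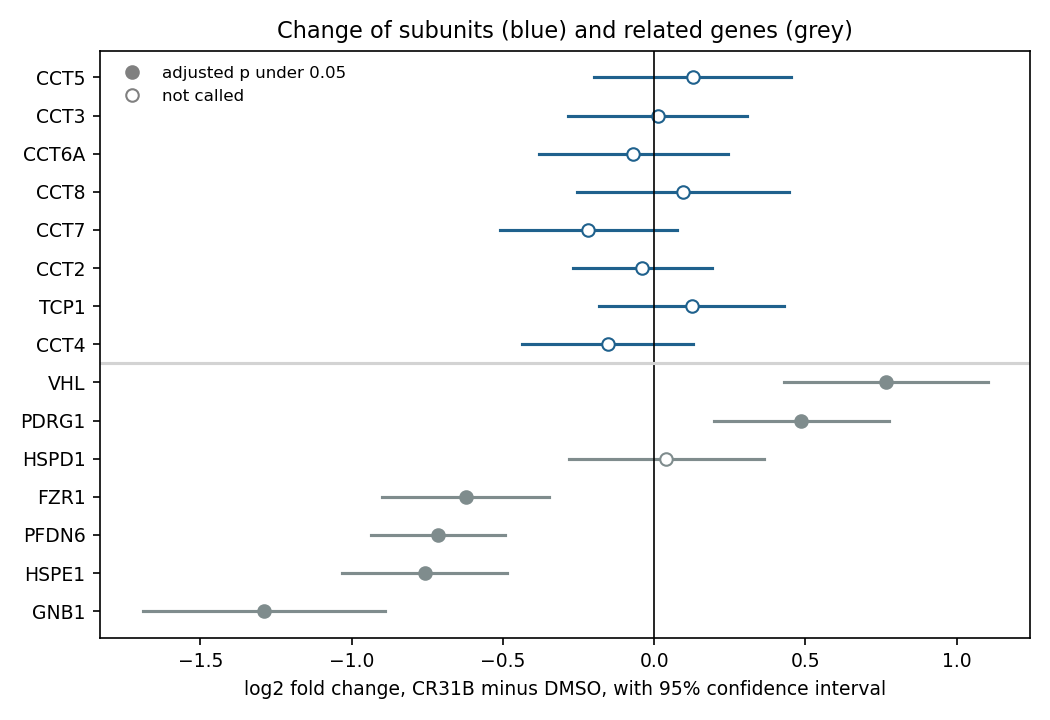
Log2 fold change (CR31B minus DMSO, on log2(TPM + 1)) with its 95% confidence interval for the 8 subunits in blue and, in grey, for the called genes of the related lists and HSPD1. Filled points have a limma adjusted p under 0.05: all subunit intervals cross 0, while those of VHL, PDRG1, FZR1, PFDN6, HSPE1 and GNB1 do not.

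The complex as a sum also stayed within its spread. Summed over the subunits, CR31B replicates 1 to 4 held 2640 TPM, 2001 TPM, 2210.2 TPM and 2087 TPM, and DMSO replicates 1 to 4 held 2327 TPM, 2019 TPM, 2164 TPM and 2269.6 TPM. The means were 2235 ± 283 and 2195 ± 135 TPM (SD, n = 4 each). CR31B replicate 1 exceeded every other library and the rest were interleaved, and the difference of 39.8 TPM became -95.1 TPM without that library. As a share of all TPM the complex took from 0.200% to 0.264%.

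CR31B replicate 1 was also the library in which protein-coding genes took the most TPM, 61.3%, where the other 7 had 51.8% to 58.4%. In it 7 of 8 subunits were above their own mean over the libraries, CCT7 being the exception, and the subunits deviated by 0.22 on average on the log2 scale. With TPM rescaled over protein-coding genes that deviation was 0.065, and the complex then took 0.410% ± 0.020 of protein-coding TPM under CR31B and 0.395% ± 0.019 under DMSO (SD, n = 4). After this rescaling it was higher in CR31B in 4 of 4 pairs, with overlapping groups, and 0 of 8 subunits were called.

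**Figure D4:**
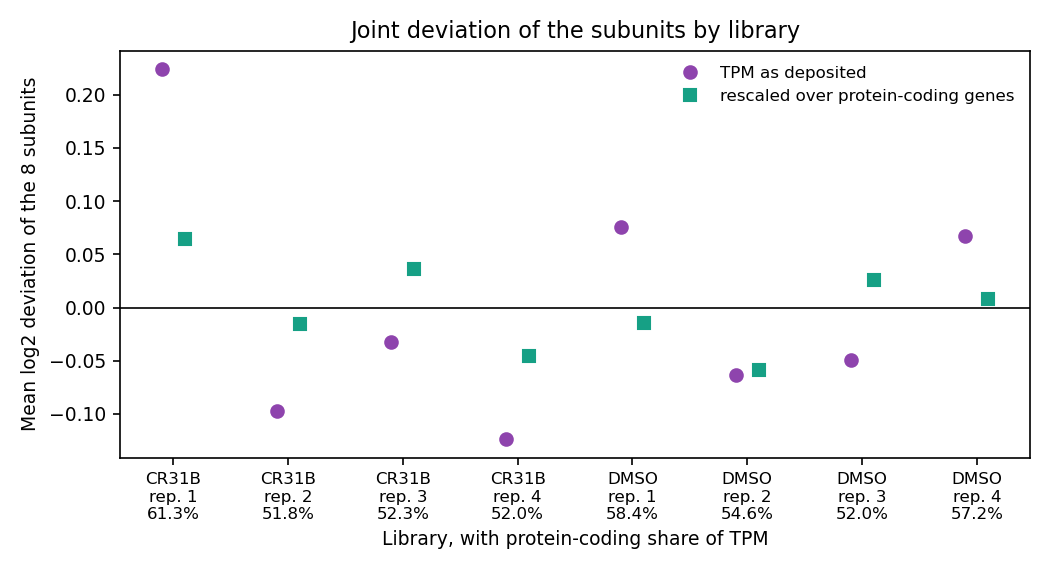
Mean deviation of the 8 subunits from their own means over the libraries, in log2 units, for each library, with TPM as deposited (purple circles) and rescaled over protein-coding genes (green squares); the protein-coding share of TPM is printed under each library. CR31B replicate 1 stands at 0.22 before and 0.065 after rescaling.

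Libraries with the same replicate number resembled each other in part across the groups. The lowest CR31B library and the lowest DMSO library carried the same number for 7 of 8 subunits: number 2 for CCT3, CCT4, CCT5 and CCT8, number 3 for TCP1 and CCT2, and number 4 for CCT7. Over 11579 tested genes with a single lowest library in each group this was so for 36.8%. The highest library carried the same number for 3 of 8 subunits, CCT2, CCT3 and CCT5, against 41.6% of tested genes. The subunits share their libraries, so these counts describe 8 libraries and are not 8 independent observations.

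Within the complex, the share of CCT4 separated the groups while its level did not. CCT4 took 3.57%, 3.45%, 3.37% and 3.48% of the summed subunit TPM in CR31B replicates 1 to 4 and 3.99%, 3.81%, 3.74% and 4.14% in DMSO replicates 1 to 4. All CR31B libraries lay below all DMSO libraries, with means of 3.47% ± 0.0812 and 3.92% ± 0.180 (SD, n = 4 each). It was the only subunit of the 8 whose share did not overlap, and it was singled out after its values were seen. The same ratio, a gene's TPM over the summed subunit TPM, did not overlap for 16.9% of all tested genes and was lower in CR31B without overlap for 9.15%, so 1 in 8 is near what the table gives at large. Shares also sum to a fixed total, so a fall in 1 share is tied to rises in others. The share of CCT5 was 26.5% ± 2.20 in CR31B and 24.6% ± 1.72 in DMSO and that of TCP1 6.16% ± 0.772 and 5.77% ± 1.09, each higher in CR31B in 4 of 4 pairs with overlapping groups. The share of CCT7 was 8.68% ± 1.97 in CR31B and 10.1% ± 0.721 in DMSO, lower in 3 of 4 pairs. The ratio of highest to lowest subunit was 7.77 ± 0.502 in CR31B and 6.68 ± 0.326 in DMSO without overlap. CCT4 was the lowest subunit in every library, so this ratio uses the same CCT4 values and is not a separate observation. Per coding base, at 11.1 (SD 0.9995) and 9.13 ± 0.904, the groups overlapped.

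Copies of the subunit genes took almost no footprints. CCT6B, the testis paralog of CCT6A, was listed at 0.04 to 0.29 TPM and fell below the filter. Of 14 pseudogenes matched to a subunit by symbol, CCT6P1 had the highest mean, at 0.312 TPM, and all 14 together reached at most 1.53 TPM in a library. Reads shared with such copies could be assigned to either gene, and adding the copies to their parents left the ratio of highest to lowest subunit at 7.22 on average.

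Some genes around the chaperonin were called. Of 56 genes in 9 lists of partners, clients and other chaperonins 50 were tested, and 6 (12%) were called by limma, 2 higher and 4 lower in CR31B, with a median log2 fold change of -0.022. All genes considered, 7.46% were called, and with the replicate block 9 of the 50 listed genes were called, beside 12.3% of all genes. Of the 969 tested genes within the level range of the subunits 11.2% were called without the block, a share near that of the listed genes. The lists were chosen with earlier results of these data known. Among the 6 prefoldin subunits only PFDN6 was called. PFDN6 measured 114, 106, 112 and 97.8 TPM in the CR31B libraries (replicates 1 to 4) and 169, 181, 186 and 171 TPM in the DMSO libraries, with no overlap. Its log2 fold change was -0.71 (SE 0.10; adjusted p in limma 0.00328), and the other 5 ranged from -0.028 for PFDN2 to 0.22 for PFDN1.

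Of the 7 prefoldin-like and R2TP genes, which build larger assemblies, PDRG1 rose: the CR31B libraries averaged 15.3 ± 2.02 TPM and the DMSO libraries 10.6 ± 1.13 TPM (SD, n = 4 each; log2 fold change 0.49; SE 0.13; adjusted p in limma 0.0493). That call held in 5 of 16 alternatives and was lost when any single library was left out. None of the 3 tested phosducin-like cochaperones and none of the 5 tubulin folding cofactors was called. The closest was PDCL3, with means of 28.1 ± 3.01 TPM under CR31B and 38.3 ± 3.44 TPM under DMSO (log2 fold change -0.43, limma adjusted p of 0.0509). PDCL3 was called in 4 of 16 alternatives.

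Of the clients, 0 of 11 actin and tubulin genes were called, with a median log2 fold change of 0.0068. With the replicate block TUBB (-0.41, limma adjusted p of 0.0329) and TUBB4B (0.42, 0.0258) were called, in opposite directions. Several genes within the actin family, and within the alpha and the beta tubulin families, are near-copies of each other. Reads shared within a family could make their values uncertain, and such sharing was not measured. Among 9 beta-propeller clients 2 fell. GNB1, a G protein beta subunit, measured 82.0, 86.6, 57.99 and 61.8 TPM in the CR31B libraries (replicates 1 to 4) and 147, 235, 154 and 177 TPM in the DMSO libraries, a log2 fold change of -1.29 (SE 0.18; adjusted p in limma 0.00328). FZR1, an activator of the anaphase-promoting complex, averaged 11.8 ± 1.33 TPM under CR31B and 18.8 ± 1.87 TPM under DMSO (log2 fold change -0.62, limma adjusted p of 0.0154), a call lost without DMSO replicate 4, at 0.0567. WRAP53, a telomerase factor of the same list, had a log2 fold change of -0.42 and was not called (limma adjusted p of 0.0663), but was called in 2 of 16 alternatives, the replicate block among them (limma adjusted p of 0.0333). CDC20, a beta-propeller protein long known as a TRiC client, had a log2 fold change of -0.14 (limma adjusted p of 0.656). Of 5 other clients VHL, a ubiquitin ligase subunit, rose, with 10.1 ± 1.67 TPM under CR31B and 5.49 ± 0.857 TPM under DMSO (log2 fold change 0.77; SE 0.15; adjusted p in limma 0.0149).

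Of the mitochondrial chaperonin, the lid fell and the ring was not called. HSPD1, which forms its ring, averaged 260.5 ± 47.7 TPM under CR31B and 251 ± 24.5 TPM under DMSO (log2 fold change 0.040; SE 0.15; adjusted p in limma 0.904). HSPE1, the lid of that ring, measured 459, 460.1, 394 and 359 TPM in the CR31B libraries (replicates 1 to 4) and 663, 764, 668 and 723 TPM in the DMSO libraries. All CR31B libraries lay below all DMSO libraries, with a log2 fold change of -0.76 (95% confidence interval from -1.03 up to -0.49; SE 0.12; adjusted p in limma 0.00626), and the call held in 16 of 16 alternatives. Small abundant genes such as HSPE1 have many pseudogene copies, and the value is uncertain to that extent. Neither of the heat shock transcription factors HSF1 (log2 fold change -0.054) and HSF2 (-0.10) was called.

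The genes whose libraries followed the average of the subunits most closely were KIF11, CDCA5, VTA1, PSMB1 and ACAA2. Likeness was the root mean square difference, over the 8 libraries, between a gene's log2(TPM + 1) and the mean of the 8 subunits, each taken relative to its own mean. It was 0.045 for KIF11 and 0.051 for ACAA2, with a median of 0.214 over the 5605 genes compared. Measured in the same way against that average, to which each contributes, the subunits ran from 0.076 for CCT3 to 0.197 for CCT7. Likeness was computed on TPM as deposited. On that scale the subunit average deviated by 0.22 in CR31B replicate 1, against 0.065 after rescaling over protein-coding genes. The part of the protein-coding share of each library in this likeness was not tested.

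Marker genes were read for cell type, and they cannot identify the line or its genotype. Of 7 adrenergic neuroblastoma markers 6 had a mean of at least 1 TPM, TH being the exception, and their sum ran from 613 to 701 TPM in the CR31B libraries and from 522 to 679.5 TPM in the DMSO libraries. Of 6 mesenchymal markers only TNC reached that mean, and PRRX1 was listed at 0 throughout. Their sum, made of low values, was 2.34 to 3.45 TPM in CR31B and 4.00 to 4.49 TPM in DMSO. All CR31B libraries lay below all DMSO libraries, and groups did not overlap for 16.2% of single tested genes either. The part of these low levels in the subunit values was not tested. Markers of blood, epithelial, endothelial and liver cells (PTPRC, EPCAM, KRT5, PECAM1, ALB) summed to at most 0.19 TPM, with PECAM1 listed at 0 throughout.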

How the data were processed

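Ribosome footprints of 8 IMR32 libraries (4 CR31B, 4 DMSO) were analysed from 1 table of TPM per gene that the authors deposited. The submitters' processing notes name cutadapt 3.2, Bowtie2 2.3.4.1, STAR 2.7.1a, RSEM 1.2.28, DESeq2 1.32.0 and the builds hg38 and GRCh38, without role or order; annotation release, strand setting and read counts are not given in the sources used here, so depth is unknown and no counting interval is given. TPM fixes each library's sum.

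Symbols came from a gene name table (60481 of 60651 identifiers), and transcripts, coding lengths and coordinates from GENCODE release 29, which held 58405. One transcript per gene was used, by APPRIS rank, then CCDS, then length. The 11778 genes averaging 1 TPM or more were fitted as log2(TPM + 1) with limma 3.58.1 (R 4.3.3; lmFit, eBayes with trend, treatment only), with Benjamini-Hochberg adjustment over all of them. This understates changes of low genes. The fit was tested on simulated data. Exact permutation tests were two-sided over 70 assignments (smallest p 0.0286). Other steps ran in Python 3.11.15 (pandas 2.3.3, NumPy 2.4.6, matplotlib 3.10.9, SciPy 1.17.1).

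For each gene, each library was expressed as its log2(TPM + 1) minus the mean of its group. Across genes, these differences had correlations between same-numbered CR31B and DMSO libraries of 0.333, 0.324, 0.301 and 0.105 for numbers 1 to 4. The correlations between libraries of different numbers ran from -0.206 to 0.134, with a median of -0.123, and number 4 lay within that range. The differences cancel within a group, so higher correlations for same numbers go with lower ones for different numbers. All numbers were treated as pairs in a blocked alternative. Other alternatives changed the pseudocount (0.1), the filter, the scaling, the variance trend and the libraries. Members and lists were chosen with earlier results of these data known. By rule, the text names all subunits, CCT6B, HSPD1, HSPE1, up to 2 called genes per direction and list, the top pseudogene and the 5 most alike genes. Others (PFDN1, PFDN2, PDCL3, TUBB, TUBB4B, WRAP53, CDC20, HSF1, HSF2, ACAT2, COMMD1) were added after their values were seen. MKKS mapped to 3 identifiers and was not used.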

Additional observations from a re-analysis of the deposited data

Results flagged for a closer look

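Of 48 groups of 4 libraries checked, 1 held a library far from the other 3, where 2.4 would be expected by chance. CCT8 took 12.6% of the summed subunit TPM in DMSO replicate 3, against 10.9% to 11.1% in the other DMSO libraries.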

How the results depend on the processing

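No subunit was called in any of the 16 alternative fits, and of 128 subunit values 119 kept their sign. The 9 that changed sign were all near 0: CCT2 at 0.020 and CCT6A at 0.018 after quantile normalization, CCT3 at -0.011 after median-ratio scaling, CCT3 at -0.074 and CCT8 at -0.038 without CR31B replicate 1, CCT3 at -0.043 without DMSO replicate 2 and at -0.017 without DMSO replicate 3, and CCT6A at 0.012 without CR31B replicate 4 and at 0.0016 without DMSO replicate 4. Over libraries left out, CCT3 ran from -0.074 to 0.070, CCT6A from -0.17 to 0.012 and CCT8 from -0.038 to 0.19. With the replicate block 0 subunits and 9 related genes were called, against 0 and 6; the calls it added were TUBB, TUBB4B and WRAP53, and it ended none. Rescaling over protein-coding genes gave 10 related genes, adding TBCC, ACTG1, TUBB and TUBB4B. Leaving out each library gave 4 to 6. Of the summed TPM, the difference ran from -95.1 to 117.6 TPM over libraries left out, was 83.8 TPM after rescaling over protein-coding genes and -2.83 TPM after median-ratio scaling. The ratio of highest to lowest subunit, 7.22 on average, was 10.1 per coding base and 7.07 to 7.34 without each library. Read depth is unknown, so its part in these spreads was not tested.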
